A study of Mus musculus with 15 samples.

Results

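The 37 genes described here drive or carry out cell division and DNA replication. They were chosen by name, as D-, E-, A- and B-type cyclins, the kinases they work with, the MCM helicase, enzymes of the replication fork and of nucleotide supply, and proteins of the mitotic spindle and kinetochore. All 37 were found among the 55487 genes of each deposited table, and all 37 were among the 20718 genes with enough counts to be tested. RNA was sequenced from the left ventricular free wall of male mice at 225 days of age. The kidney disease group was 7 mice with a mutation in Col4a5, a type IV collagen chain of the kidney filter, whose loss leads to progressive kidney failure, and the controls were 8 wild-type littermates on the same normal chow. The study asked how the heart is altered while kidney disease advances. The labels call the mutation a knockdown in one place and a knockout in another, and the anaesthetic isoflurane in one place and ketamine with xylazine in another.

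A cell that enters division first makes D-type cyclins, then E- and A-type cyclins with Cdk2, copies its DNA behind the MCM helicase, and finally switches on the mitotic genes through B-type cyclins and Cdk1. Most heart muscle cells of an adult mouse have left the cycle, while resting cells of many kinds still transcribe D-type cyclins. Replication genes are classically switched on through E2F sites in their promoters, and mitotic genes through the CHR (cell cycle genes homology region) element, often beside a CCAAT box. In bulk tissue, fewer cells of a type and less RNA per cell cannot be told apart.

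Promoters of 4 members are printed because these members, with entries in the RefSeq promoter table, had the smallest p in the comparison of the groups. Each line holds the 150 bases before the RefSeq start (GRCm38.p6), read 5′ to 3′ on the gene's strand, and positions count back from the start. Capitals mark 3 kinds of letters searched on both strands. They are the CHR letters TTTGAA, the letters CCAAT, and an E2F site written as TTTGGCGC, TTTCCCGC, TTTGCCGC or TTTCGCGC.
Mcm3, chr1:20820313-20820462, minus strand: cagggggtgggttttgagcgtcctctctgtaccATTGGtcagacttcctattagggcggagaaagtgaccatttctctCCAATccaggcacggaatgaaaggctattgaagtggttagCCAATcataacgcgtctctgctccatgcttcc
Mcm3, chr1:20820267-20820293, minus strand, bases 20 to 46 from the start: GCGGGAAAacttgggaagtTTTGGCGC
Cdk2, chr10:128705052-128705201, minus strand: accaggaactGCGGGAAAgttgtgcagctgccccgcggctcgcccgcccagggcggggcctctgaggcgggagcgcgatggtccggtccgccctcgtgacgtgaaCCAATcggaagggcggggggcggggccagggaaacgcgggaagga
Cdc20, chr4:118437344-118437493, minus strand: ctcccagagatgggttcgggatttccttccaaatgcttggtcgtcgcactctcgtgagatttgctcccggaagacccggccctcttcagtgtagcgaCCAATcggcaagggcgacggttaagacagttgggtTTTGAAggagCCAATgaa
Kif11, chr19:37376232-37376381, plus strand: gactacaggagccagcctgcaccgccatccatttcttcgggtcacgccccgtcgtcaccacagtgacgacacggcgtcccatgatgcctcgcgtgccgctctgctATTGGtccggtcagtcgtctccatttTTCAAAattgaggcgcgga

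The mitotic genes Cdc20 and Kif11 hold the CHR letters at bases -18 to -13 and -19 to -14, each with a CCAAT match further upstream. For the S-phase kinase gene Cdk2 and the helicase gene Mcm3 no CHR letters fell in the window, and an E2F match was found at bases -140 to -133 and, for Mcm3, inside its first exon. In the gene models of the tables, no gene covers the Mcm3 and Kif11 windows, 9 bases of the Cdc20 window lie in a Cdc20 exon, and 22 bases of the Cdk2 window lie in an exon of Pmel on the opposite strand. Of the 37 members, 29 had a RefSeq window, which runs from 250 bases before to 50 bases after the start. A gene with several windows was counted once, with the matches of all its windows. The CHR letters were in 13 of the 18 mitotic members with a window (72.2%) and in 1 of the 8 such replication members (12.5%). Of all 27025 genes with a window 20.2% held them. E2F letters were in 4 of these 8 replication members and 1 of these 18 mitotic members (5.56%), against 2.60% of the 27025 genes. CCAAT letters were in 88.9% and 87.5% of these mitotic and replication members and in 41.1% of the 27025 genes. These are matches of letters, not measured binding.

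Levels were highest for the G1 cyclins and lowest for the mitotic genes. Per kilobase of exon and averaged over the 15 libraries, the D-type cyclin Ccnd2 was the highest at 20.8 CPM (counts scaled to library size) per kb. It was followed by Ccnd1 at 13.2, the polymerase clamp Pcna at 7.66, Ccnd3 at 5.75 and the kinetochore gene Cenpf at 3.51 CPM per kb. The other 20 mitotic members lay between 0.0612 CPM per kb for the checkpoint kinase Bub1 and 0.859 CPM per kb for Mki67 and for Cdc20. Depth limits the lowest of them: among libraries of 48748379 to 65519279 counts, Bub1 had 1 to 51 counts, the B-type cyclin Ccnb2 had 2 to 113, and Ccnb1 had 4 to 60. Aurkb, Plk1 and Birc5 had as few as 6, 7 and 9 counts in a library. These and all later CPM values of genes are scaled with TMM factors, and from here on they are not divided by length.

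No member passed the test between the groups. With edgeR's quasi-likelihood test and Benjamini-Hochberg adjustment over all genes tested, 0 of the 37 were higher and 0 lower in kidney disease at an adjusted p under 0.05. Over all genes tested 0.811% were called higher and 0.473% lower. At an unadjusted p under 0.05, 13 members were higher and 0 lower, where 6.84% of all genes were higher and 5.55% lower. DESeq2 called 2 members higher, Mcm3 and Cdc20 (adjusted p = 0.0331 and 0.0428), and 0 lower, with 2.21% of its genes called higher and 1.53% lower. By limma-voom 0 members were called, where 0.763% of genes were higher and 0.454% lower. The log2 change, kidney disease minus wild type, was above 0 for 34 of the 37 members and for 51.2% of all genes, with medians of 0.31 and 0.0042. Groups overlapped for every member, while 0.386% of all genes were higher and 0.179% lower with no overlap.

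**Figure D1:**
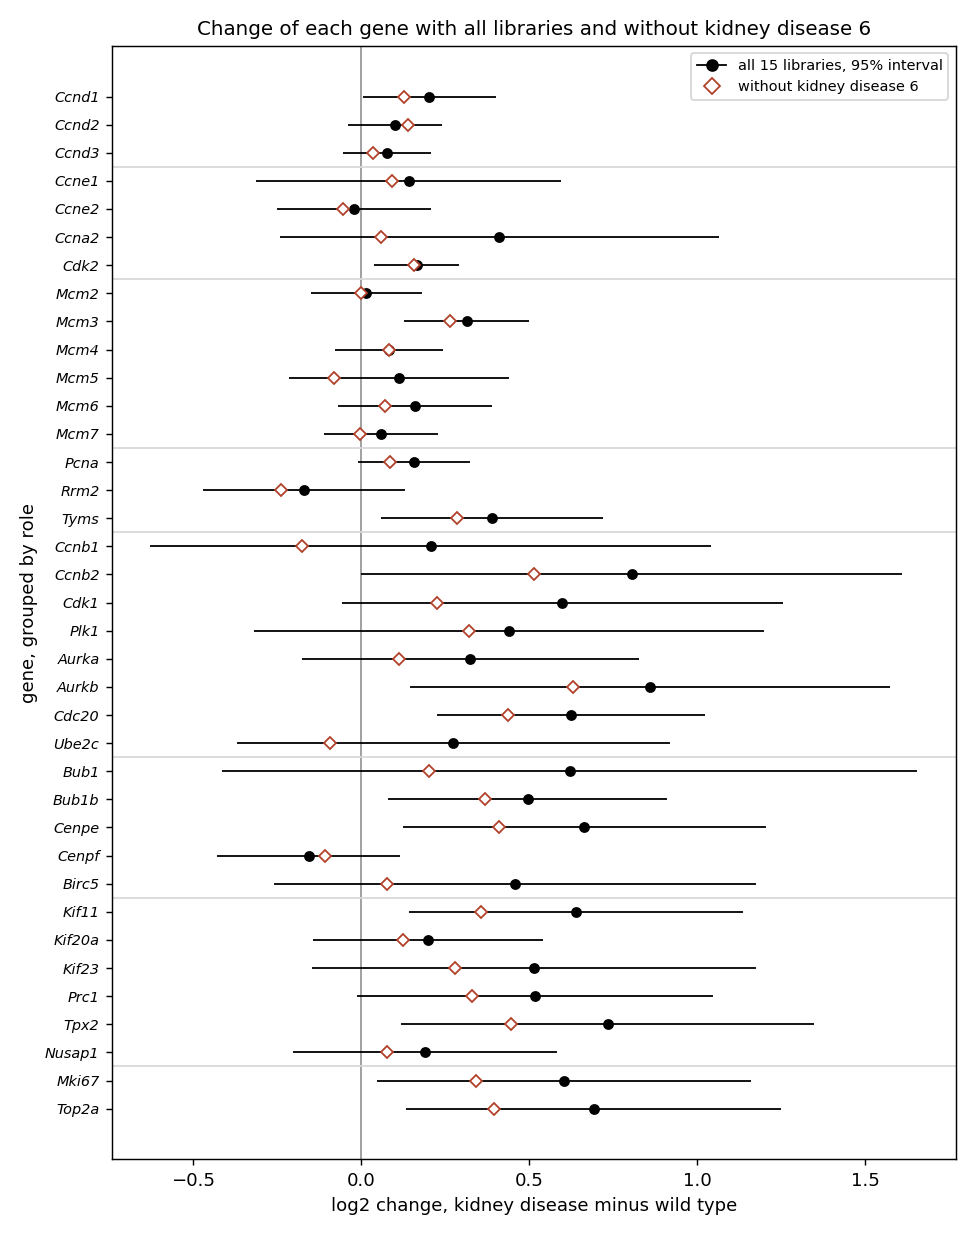
Log2 change of each member between kidney disease (n = 7) and wild type (n = 8), with its 95% interval from the edgeR fit (black), and the value without the library kidney disease 6 (open red diamonds). Genes are grouped by role from the D-type cyclins at the top to Mki67 and Top2a at the bottom, and 34 of the 37 black points lie above 0.

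The library kidney disease 6 weighed on these values more than any other library. It was the highest of the 15 libraries for 29 of the 37 members, and for 20.8% of all genes tested. Without it, 4 members instead of 13 had an unadjusted p under 0.05 and were higher (5.73% of all genes), 29 of 37 log2 changes were above 0 (49.8% of all genes), and the members' median was 0.13. Leaving out any other library gave 9 to 16 members. The library wild type 1 stood at the opposite end, as the lowest of the 15 for 11 of the 37 members and for 8.28% of all genes. Without both libraries 4 members had an unadjusted p under 0.05 and were higher (5.48% of all genes), 29 log2 changes lay above 0 (49.4% of all genes), and the median was 0.12.

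**Figure D2:**
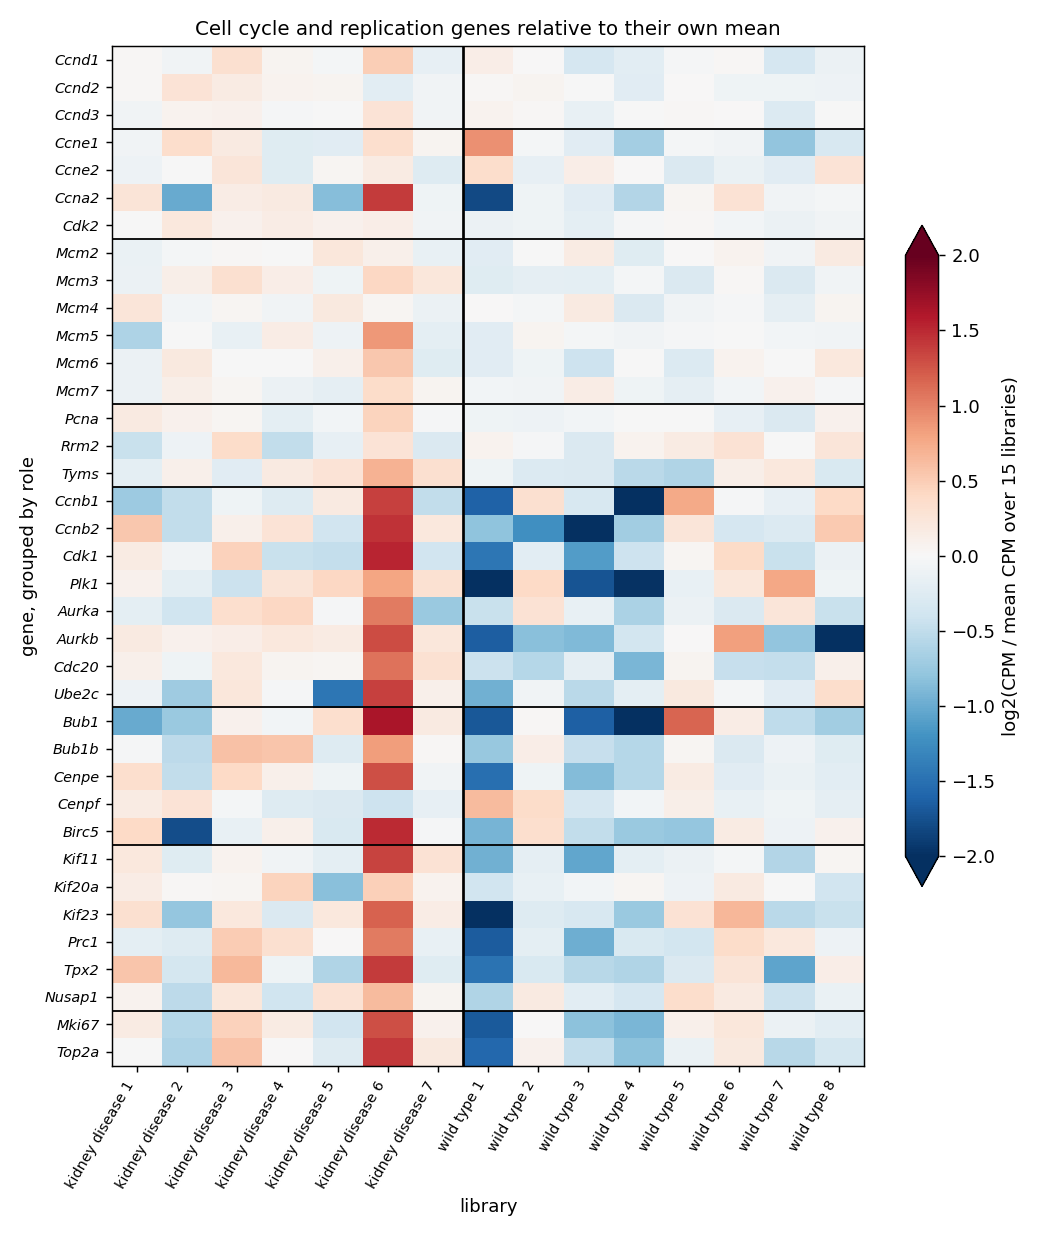
Level of each member in each library as log2 of its TMM-scaled CPM over its own mean in the 15 libraries (colour scale, cut at -2 and 2), with genes in rows by role and libraries in columns by group. The column of kidney disease 6 is red in the mitotic rows, the column of wild type 1 is blue in most of them, and Cenpf runs the other way in both.

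D-type cyclins open the G1 phase by activating Cdk4 and Cdk6. Ccnd1 ranged from 55.7 to 87.8 CPM in kidney disease (median 63.1) and from 49.2 to 68.3 CPM in wild type (median 59.4). Its groups overlapped, with 2 of the 7 kidney disease libraries above every wild-type library. The log2 change of Ccnd1 was 0.20 (SE 0.09, edgeR adjusted p = 0.389), and 0.13 without kidney disease 6. Ccnd2 and Ccnd3 had log2 changes of 0.10 (SE 0.07) and 0.08 (SE 0.06), with adjusted p of 0.597 and 0.693. The summed level of the 3 D-type cyclins was 322 ± 21.8 CPM in kidney disease (SD, n = 7) and 297 ± 18.2 CPM in wild type (SD, n = 8), a ratio of 1.09 that was also 1.09 without kidney disease 6. Ccnd2 makes up most of this sum, in which kidney disease 6 ranked 6 of 15. That library was the lowest of its group for Ccnd2, at 169 CPM, and the highest of the 15 for Ccnd1 and Ccnd3. By the median of the 3 genes' levels over their own means it ranked 1 of 15, at 1.21.

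Cdk2 is the kinase that E- and A-type cyclins activate at the start of and during S phase. It ranged from 8.23 to 9.94 CPM in kidney disease (median 9.14) and from 7.50 to 8.73 CPM in wild type (median 8.14). All 7 kidney disease libraries lay above the wild-type median and 5 above the highest wild-type library, and the lowest kidney disease library, number 7, lay within the wild-type range. The log2 change was 0.16 (SE 0.06, 95% interval 0.04 to 0.29), with an edgeR adjusted p of 0.233, and it was 0.16 again without kidney disease 6. Of the cyclin E genes, Ccne1 had a log2 change of 0.14 (SE 0.22) and Ccne2 of -0.02 (SE 0.11). The highest library for both was wild type 1, at 2.19 CPM for Ccne1 and 7.61 CPM for Ccne2. Ccna2, the cyclin of S phase and G2, had a log2 change of 0.41 (SE 0.31; edgeR adjusted p = 0.667) that came to 0.06 without kidney disease 6.

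Mcm3 is 1 of the 6 subunits of the helicase that opens DNA for replication, and its unadjusted p was the smallest of the 37 members. It ranged from 5.88 to 8.49 CPM in kidney disease (median 6.95) and from 5.18 to 6.45 CPM in wild type (median 5.59). Every kidney disease library lay above the wild-type median and 5 of 7 above the highest wild-type library. Libraries 1 and 5 of kidney disease fell inside the wild-type range. Mcm3 had a log2 change of 0.31 (SE 0.09, 95% interval 0.13 to 0.50), with an edgeR adjusted p of 0.0932, and of 0.27 without kidney disease 6 (adjusted p = 0.186). Scaling to the library total in place of TMM gave an adjusted p of 0.0374, making Mcm3 the single member called there, where 2.1% of all genes were called higher and 0.294% lower.

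The other 5 helicase subunits had log2 changes from 0.01 for Mcm2 to 0.16 for Mcm6. Without kidney disease 6 the values were 0.07 for Mcm6, -0.08 for Mcm5, -0.01 for Mcm7 and -0.0016 for Mcm2, so that 3 of the 6 subunits lay above 0. Mcm5 shows the weight of that library, with 6.82 CPM there against 2.42 to 4.12 CPM in the other kidney disease libraries and 3.19 to 3.87 CPM in wild type.

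The nucleotide and fork genes had values on both sides of 0. Tyms, the thymidylate synthase that makes a DNA building block, ranged from 1.76 to 3.34 CPM in kidney disease (median 2.33) and from 1.35 to 2.37 CPM in wild type (median 1.70). Its 7 kidney disease libraries all lay above the wild-type median, and 3 lay above the wild-type range. Its log2 change was 0.39 (SE 0.16, adjusted p = 0.294), and 0.29 without kidney disease 6, its highest library. For Pcna, which holds the polymerase on DNA, the log2 change was 0.16 (SE 0.08, adjusted p = 0.449), and 0.09 without kidney disease 6. Rrm2, a subunit of ribonucleotide reductase, was among the 3 members below 0, at -0.17 (SE 0.14, adjusted p = 0.710). Summed over the 9 replication members the level was 71.5 ± 8.06 CPM in kidney disease (SD, n = 7) and 65.6 ± 3.06 CPM in wild type (SD, n = 8), a ratio of 1.09 that came to 1.04 without kidney disease 6.

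**Figure D3:**
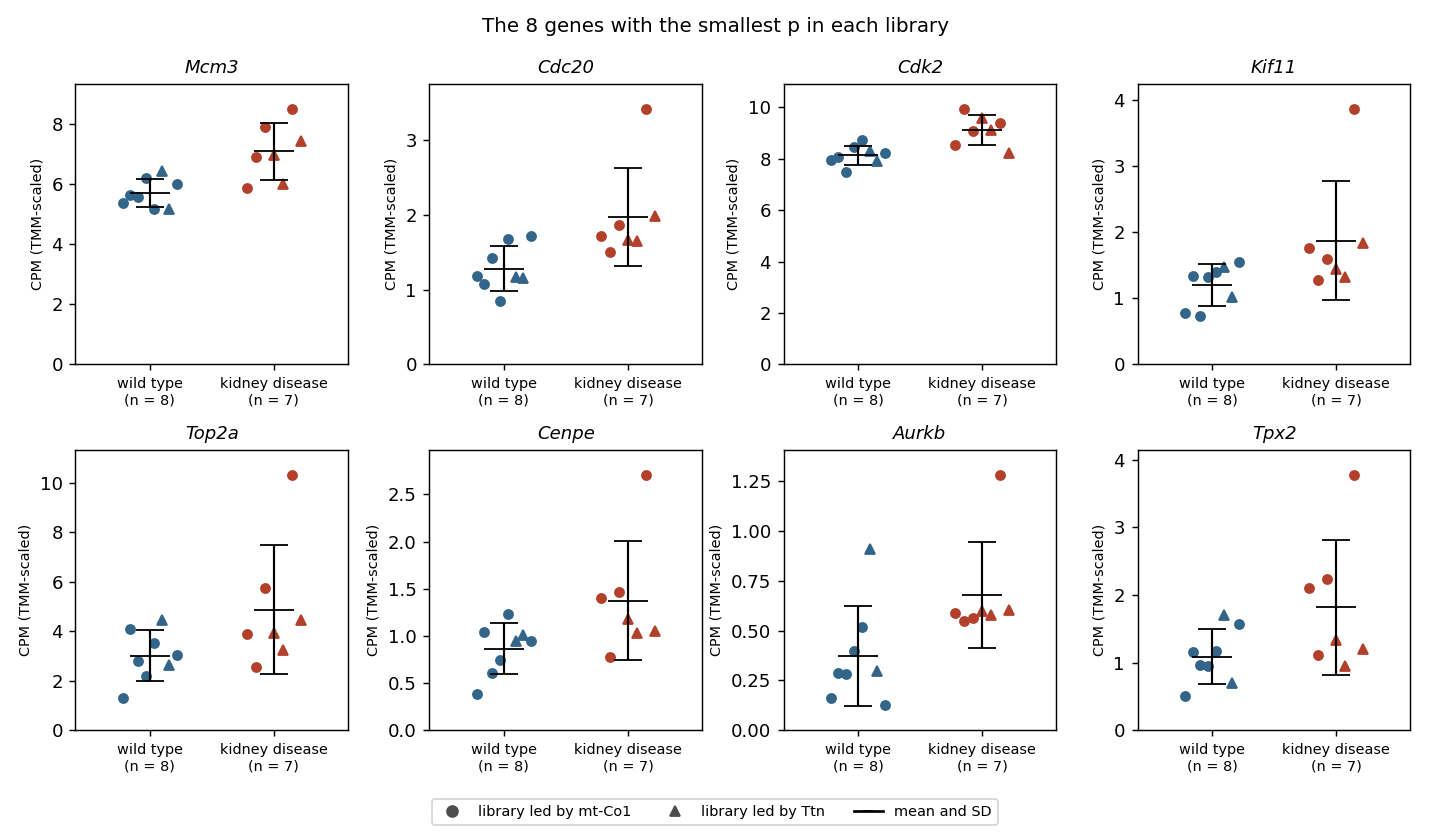
TMM-scaled CPM in each library for the 8 members with the smallest unadjusted p, with the mean and SD of each group (bars) and the leading gene of the library (circles mt-Co1, triangles Ttn). In Mcm3, Cdc20, Kif11, Top2a, Cenpe, Aurkb and Tpx2 the highest point is kidney disease 6, and in Cdk2 it is kidney disease 2.

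The largest log2 changes among the members were those of mitotic genes. Of the 21, 20 had a log2 change above 0 (51.2% of all genes), with a median of 0.52. At an unadjusted p under 0.05, 9 were higher (6.84% of all genes). Cenpf, a kinetochore protein, was the exception: its log2 change was -0.16 (SE 0.13, adjusted p = 0.707), it was lowest in kidney disease 6 at 40.8 CPM and highest in wild type 1 at 83.5 CPM. Without wild type 1 its log2 change was -0.06. Cenpf was set apart in the sums below after its values were seen. The other 20 had a median of 0.56, which was 0.33 without kidney disease 6 and 0.20 without both kidney disease 6 and wild type 1. Kidney disease 6 was the highest of the 15 libraries for all 20 (20.8% of all genes), and wild type 1 the lowest for 10 (8.28% of all genes). Without kidney disease 6, 18 of the 20 lay above 0 (49.8% of all genes). Cdc20 was then the single one with an unadjusted p under 0.05, where 5.73% of all genes were higher.

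Cdc20 activates the anaphase-promoting complex, which lets sister chromatids part. It ranged from 1.51 to 3.42 CPM in kidney disease (median 1.72) and from 0.853 to 1.71 CPM in wild type (median 1.18). All 7 kidney disease libraries were above the wild-type median and 4 above the wild-type range, and the other 3 lay within it. The log2 change was 0.62 (SE 0.19, 95% interval 0.23 to 1.02), with an edgeR adjusted p of 0.128, and 0.44 without kidney disease 6 (adjusted p = 0.273).

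Aurkb is the kinase of the chromosomal passenger complex, which corrects faulty spindle attachments. Its levels ran from 0.550 to 1.28 CPM in kidney disease (median 0.586) and from 0.124 to 0.908 CPM in wild type (median 0.294). Apart from kidney disease 6, the kidney disease libraries lay within the wild-type range, whose top was wild type 6. Of the 8 wild-type libraries the other 7 lay below every kidney disease library. Its log2 change of 0.86 (SE 0.34, 95% interval 0.14 to 1.57; edgeR adjusted p = 0.282) was the largest of the 37 and came to 0.63 without kidney disease 6. Leaving out 1 library gave 0.63 to 1.19. Without wild type 6 the edgeR adjusted p of Aurkb was 0.0733, the smallest of the members in that fit. Among the other genes of entry into mitosis, Ccnb2 had a log2 change of 0.81 (SE 0.38), the mitotic kinase gene Cdk1 of 0.60 (SE 0.31), Plk1 of 0.44 (SE 0.36) and Aurka of 0.32 (SE 0.24). These were 0.52, 0.23, 0.32 and 0.11 without kidney disease 6. Ccnb1 and Ube2c, the ubiquitin-conjugating enzyme of the anaphase-promoting complex, changed sign with that library, from 0.21 to -0.18 and from 0.27 to -0.09.

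Kif11 is the motor that pushes the spindle poles apart. Its range was 1.28 to 3.86 CPM in kidney disease (median 1.58) and 0.733 to 1.55 CPM in wild type (median 1.33). Of the 7 kidney disease libraries 4 lay above the wild-type range, and without kidney disease 6 the highest was 1.84 CPM. The log2 change was 0.64 (SE 0.24, edgeR adjusted p = 0.238), and 0.36 without kidney disease 6. Tpx2, which activates Aurora A on the spindle, ranged from 0.944 to 3.78 CPM in kidney disease (median 1.34) and from 0.512 to 1.70 CPM in wild type (median 1.06). Of its kidney disease libraries 4 lay within the wild-type range, and the log2 change was 0.73 (SE 0.29, adjusted p = 0.285), or 0.45 without kidney disease 6. For the cytokinesis genes Prc1 and Kif23 the log2 changes were 0.52 (SE 0.25) and 0.51 (SE 0.32), and for Kif20a and the spindle protein gene Nusap1 they were 0.20 (SE 0.16) and 0.19 (SE 0.19). In the absence of kidney disease 6 Prc1 was at 0.33, Kif23 at 0.28, Kif20a at 0.12 and Nusap1 at 0.08.

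At the kinetochore, Cenpe, a motor that moves chromosomes to the spindle equator, ranged from 0.781 to 2.71 CPM in kidney disease (median 1.18) and from 0.389 to 1.24 CPM in wild type (median 0.947). Libraries 1, 3 and 6 of kidney disease were above the wild-type range. The log2 change of Cenpe was 0.66 (SE 0.26, edgeR adjusted p = 0.267), and 0.41 without kidney disease 6. The checkpoint gene Bub1b had a log2 change of 0.50 (SE 0.20, edgeR adjusted p = 0.288), and of 0.37 without kidney disease 6. Bub1 and Birc5, whose product survivin belongs to the passenger complex, had values of 0.62 (SE 0.49) and 0.46 (SE 0.34) that came to 0.20 and 0.08 without kidney disease 6.

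Top2a untangles replicated DNA and Mki67 coats mitotic chromosomes, and both are used as markers of dividing cells. Top2a ranged from 2.54 to 10.3 CPM in kidney disease (median 3.92) and from 1.31 to 4.46 CPM in wild type (median 2.93). The 10.3 CPM were in kidney disease 6, the 1.31 CPM in wild type 1, and the groups overlapped between these ends. Its log2 change was 0.69 (SE 0.27, edgeR adjusted p = 0.262), and 0.39 without kidney disease 6. Mki67 averaged 10.6 ± 5.07 CPM in kidney disease (SD, n = 7) and 6.95 ± 2.60 CPM in wild type (SD, n = 8), with 21.1 CPM in kidney disease 6 and the lowest level in wild type 1. Its log2 change was 0.60 (SE 0.27, adjusted p = 0.352), and 0.34 without kidney disease 6.

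**Figure D4:**
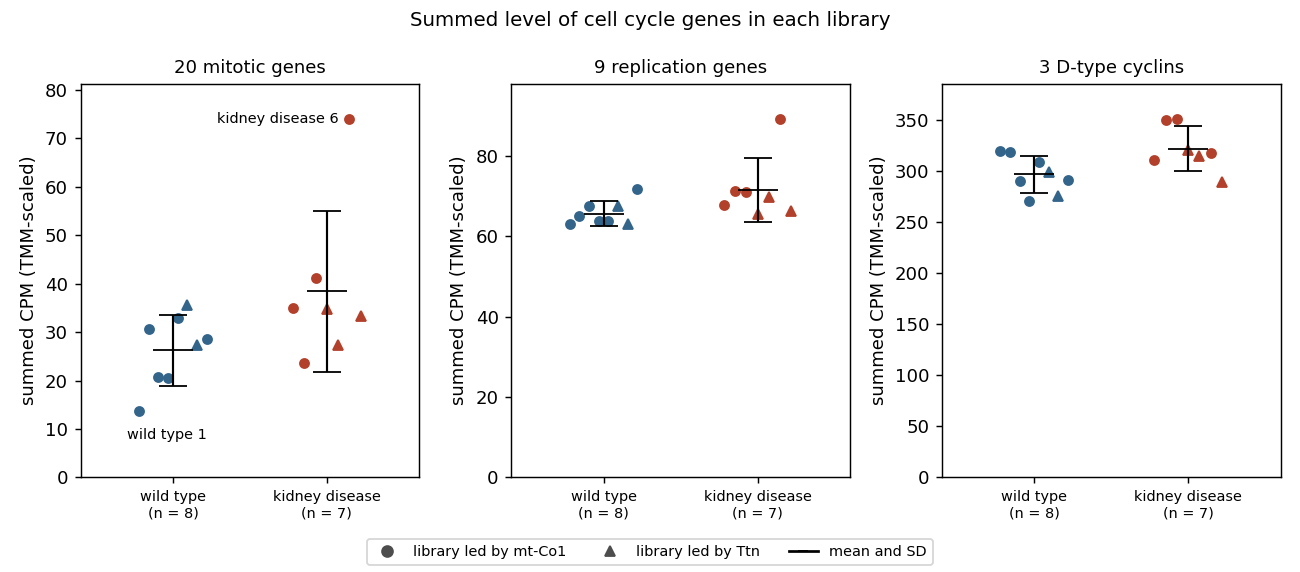
Summed TMM-scaled CPM in each library for the 20 mitotic members without Cenpf, the 9 replication members and the 3 D-type cyclins, with the mean and SD of each group (bars) and the leading gene of the library (circles mt-Co1, triangles Ttn). Kidney disease 6 stands at 73.9 CPM in the mitotic sum and 89.0 CPM in the replication sum, and inside its group for the D-type cyclins, a sum of which Ccnd2 makes up most.

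The summed level of the 20 mitotic members was 38.4 ± 16.6 CPM in kidney disease (SD, n = 7) and 26.3 ± 7.36 CPM in wild type (SD, n = 8), a ratio of 1.46. Kidney disease 6, at 73.9 CPM, supplied 27.5% of its group's sum, where an equal share would be 14.3%. The other kidney disease libraries ran from 23.6 to 41.2 CPM and the wild-type libraries from 13.7 CPM in wild type 1 to 35.6 CPM. Without kidney disease 6 the kidney disease mean was 32.5 ± 6.24 CPM (SD, n = 6) and the ratio 1.24, and without wild type 1 as well the ratio was 1.16. Both libraries were picked after the values were seen, as the highest kidney disease and the lowest wild-type library. Leaving them out could therefore only lower the ratio. Whether the groups still differed in this sum was not tested.

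Libraries also fell into those in which mt-Co1, a mitochondrial gene, had the most counts (10) and those led by Ttn, the gene of titin (5: kidney disease 4, 5 and 7 and wild type 6 and 7). Within the mt-Co1-led libraries the mitotic sum was 43.4 ± 21.6 CPM in kidney disease (SD, n = 4) and 24.5 ± 7.37 CPM in wild type (SD, n = 6). Both kidney disease 6 and wild type 1 were led by mt-Co1. Without kidney disease 6 the kidney disease sum was 33.2 ± 8.96 CPM (SD, n = 3), and without wild type 1 the wild-type sum was 26.7 ± 5.71 CPM (SD, n = 5). Within the Ttn-led libraries the sums were 31.8 ± 3.93 CPM (SD, n = 3) and 31.4 ± 5.93 CPM (SD, n = 2). There 8 of the 20 mitotic genes lay above 0 (50.2% of all genes), with a median log2 change of -0.05. The 20 genes had a median of 0.82 and all lay above 0 in the mt-Co1-led libraries (51.0% of all genes). That median includes kidney disease 6 and wild type 1 and was not computed without them. The difference between the splits was not tested.

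Other genes of the cycle, a list of 115 of which 113 were tested, gave 0 calls with edgeR in either direction, with 13 higher and 1 lower (Pold1) at an unadjusted p under 0.05. Over all genes tested 0.811% and 0.473% were called higher and lower, and 6.84% and 5.55% at the unadjusted threshold. DESeq2 and limma-voom called 0 of them as well. Of the 113, 82 lay above 0 (51.2% of all genes), with a median of 0.09. Without kidney disease 6, 66 lay above 0 (49.8% of all genes), with a median of 0.014. At the unadjusted threshold 7 were then higher and 4 lower, where 5.73% of all genes were higher and 1035 of 20958 lower. Without wild type 1 alone 8 were higher and 1 lower, where 6.74% of all genes were higher and 1057 of 20628 lower. The 30 tested mitotic genes of this list had 25 above 0, a median of 0.31 and 7 with an unadjusted p under 0.05 and higher. Kidney disease 6 was the highest library for 28 of the 31 listed, and for 20.8% of all genes tested. Without that library 19 lay above 0, with a median of 0.16 and with 3 higher and 2 lower at the unadjusted threshold. Without wild type 1 as well, 18 lay above 0, with a median of 0.11 and with 1 higher and 1 lower. Over all genes of that fit 49.4% lay above 0, and 5.48% were higher and 935 of 20908 lower at the unadjusted threshold. Smc4, a condensin subunit, had a log2 change of 0.21 (SE 0.06; edgeR adjusted p = 0.107). Without kidney disease 6 it was 0.20. Anln and Ckap2l, of the cleavage furrow and the spindle, had values of 0.64 (SE 0.22) and 0.79 (SE 0.29).

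Regulators of the cycle had values on both sides of 0. The CDK inhibitor genes Cdkn1c and Cdkn2c had log2 changes of -0.21 (SE 0.11) and 0.15 (SE 0.09; 0.08 without kidney disease 6), and Cdkn1a, the p53 target p21, had 0.56 (SE 0.33), which was 0.23 without kidney disease 6. Among RB and E2F genes the smallest p belonged to the repressors E2f7 (0.30, SE 0.16) and E2f8 (0.26, SE 0.18) and the RB relative Rbl2 (0.09, SE 0.06). Foxm1, a transcription factor of mitotic genes, had 0.46 (SE 0.23) and 0.25 without kidney disease 6, while Lin54, the CHR-binding subunit of the DREAM complex, had 0.14 (SE 0.07) and the G1 kinase gene Cdk6 had 0.17 (SE 0.09). Cdc25b, a phosphatase that activates CDKs, had 0.34 (SE 0.12), and Wee1, the kinase that opposes it, had -0.34 (SE 0.17), with Gadd45a at -0.11 (SE 0.10). Wee1 was at -0.19 without wild type 1, its highest library at 31.8 CPM.

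For origin firing, Cdc6, which loads the helicase, had a log2 change of 0.61 (SE 0.28), Dbf4, the partner of Cdc7, 0.35 (SE 0.18), and the helicase cofactor gene Gins2 0.38 (SE 0.24). The polymerase delta genes Pold3 and Pold1 lay on either side of 0, at 0.21 (SE 0.06) and -0.13 (SE 0.06), and the single-strand binding gene Rpa2 was at 0.19 (SE 0.08). The nucleotide genes Dck, Rrm2b and Tk1 had 0.32 (SE 0.15), -0.11 (SE 0.06) and -0.10 (SE 0.13). Kidney disease 6 was the highest library for 9 of 17 origin genes and 9 of 19 polymerase and fork genes, and for 20.8% of all genes tested.

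Col4a5 itself was at 9.19 to 16.2 CPM in the kidney disease libraries and at 50.4 to 65.7 CPM in wild type, as the labels say. The 8 markers of ventricular muscle were present in every library, with a summed level of 69761 ± 3436 CPM in kidney disease (SD, n = 7) and 78105 ± 6818 CPM in wild type (SD, n = 8). Wild type 1 ranked 1 of 15 in this sum and kidney disease 6 ranked 14 of 15, and wild type 1 was the lowest of the 15 for the summed endothelial (1286 CPM) and mesothelial (10.1 CPM) markers. Some marker lists of other cells moved with the groups. With edgeR, 0 T and NK cell, neutrophil, endothelial, smooth muscle and pericyte, erythroid, adipocyte or atrial markers were called in either direction. Of 6 mesothelial markers 1 was higher. The part of any cell type in the cell cycle values was not tested. Of 15 macrophage markers, 10 were higher in kidney disease (edgeR adjusted p under 0.05), and none was at 0 in all 15 libraries. Over all genes tested 0.811% were called higher and 0.473% lower. The sum of the macrophage markers was 451 to 633 CPM against 331 to 396 CPM, highest in kidney disease 6. Of 10 B and plasma cell markers 5 were higher, with sums of 19.2 to 30.5 CPM against 8.88 to 17.1 CPM, and kidney disease 6 ranked 2 of 15. Of 10 fibroblast markers 5 were higher, and their sum in kidney disease 6, 2266 CPM, was the lowest of its group. Neutrophil markers, of which 5 were tested, gave sums of 3.55 to 14.0 CPM against 2.19 to 10.2 CPM, highest in kidney disease 6. That library was also the lowest of the 15 for the summed erythroid (310 CPM), atrial (31.7 CPM) and adipocyte (0.211 CPM) markers.

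Use of strand in the authors' counting was not stated, and 14 members share exon bases with another gene, mostly on the opposite strand. The largest overlaps were Kif20a with Cdc23 (29.3% of its exon bases), Ccnd1 with LTO1 (23.4%), Ube2c with Tnnc2 (22.8%, with 0 counts of Tnnc2), Ccne2 with Ints8 (17.4%) and Ccna2 with Exosc9 (12.5%). Values of these genes are uncertain to that extent. Close copies could also split reads: Ccnb1 has 5 pseudogenes, and Pcna has Pcna-ps2, which is 99.2% identical over 781 bases. The longest copy was that of Mcm7, Gm5487, over 2157 bases. Cenpf holds stretches of at least 150 bases that are at least 95% identical to transcripts of 27 other genes, among them Klhl24 with a mean of 19635 counts, and Tyms holds such stretches for 28 genes. Of these 27 and 28 genes 1 each is a pseudogene, and the match is to a stretch, not to the whole gene. The part of the copies and of these stretches in the values was not tested.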

How the data were processed

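The members and lists were chosen with earlier results of these data known. Libraries were made from total RNA after removal of ribosomal RNA (KAPA RiboErase), per the labels' protocols. The submitters' processing notes name bcl2fastq, STAR 2.7.9a, Subread, featureCounts 2.0.3 and GRCm38, and the counting options, strand included, were not stated there. The authors deposited raw counts, CPM and FPKM per gene. The deposited CPM and FPKM were recomputed from the counts in 15 of 15 libraries (relative tolerance 1e-06) and not used further. Gene symbols came from GENCODE M21 for 55141 of 55487 identifiers. Counts were filtered with filterByExpr (minimum count 10), scaled with TMM and tested with edgeR 4.0.16 (R 4.3.3; quasi-likelihood F test, group as the only term, all 15 libraries, Benjamini-Hochberg over all genes tested, threshold 0.05). SE was calculated from the log2 change and the F statistic of that fit, and the 95% intervals from this SE. The fit was also run on simulated counts. These were drawn independently for each gene, without library-wide shifts, so they do not cover the weight of single libraries. Samples are biological replicates per the design text. Copies and like stretches were searched with blastn 2.17.0 (at least 95% identity over 150 bases). All members are named, with library values for the 8 of smallest p, and from each sublist of other cycle genes the 3 of smallest p. Alternatives were other scalings and filters, DESeq2 1.42.0, limma-voom (limma 3.58.1), a replicate block, the leading gene, and leaving out libraries.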

Additional observations from a re-analysis of the deposited data

Results flagged for a closer look

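Each of the 37 members and 3 sums was searched in each genotype, 80 groups of values in all. In 19 of them 1 library stood far from the rest of its group, where chance gives about 1 in 20, or 4, for independent groups. These groups are not independent: the genes vary together, the sums hold some of the same genes, and a single library can be counted many times. In 18 of the 19 that library was kidney disease 6, as the highest of the 7 kidney disease libraries. Its level of mitotic genes was 0.9721 CPM for Ccnb1, 1.831 for Ccnb2, 2.576 for Cdk1, 1.28 for Aurkb, 3.419 for Cdc20 and 2.252 for Ube2c. At the kinetochore it was 0.8263 CPM for Bub1, 2.706 for Cenpe and 1.523 for Birc5, and for the spindle and cytokinesis genes 3.856 CPM for Kif11 and 3.419 CPM for Kif23. The markers Mki67 and Top2a stood at 21.1 and 10.32 CPM there, against at most 11.9 and 5.756 CPM in the other kidney disease libraries. Earlier in the cycle the library stood apart for Ccnd3 at 60.95 CPM, Ccna2 at 3.986 CPM and Mcm5 at 6.821 CPM. The summed level of the 20 mitotic members was 73.91 CPM there, with 41.25 CPM in the next library, and that of the replication members was 89.05 CPM, with 71.3 CPM in the next. The remaining value was Ccne1 in wild type 1, at 2.19 CPM with 1.136 CPM in the next wild-type library.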

How the results depend on the processing

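Of 988 member values under 27 alternatives, 944 kept their direction and their side of the threshold, 3 passed the threshold and 41 changed sign, and 18 of the 37 members kept their sign throughout. Members called higher numbered 1 with scaling to the library total and 2 with DESeq2, and 0 otherwise. Of the other cycle genes 1 (Smc4) was called with library-total scaling and 1 (Smc4) with the leading gene as a covariate. Over all genes, 168 called higher and 98 lower were 0.811% and 0.473% of those tested. These became 2.1% and 0.294% (435 and 61 genes) with library-total scaling, 2.21% and 1.53% (379 and 261) with DESeq2, 1.62% and 0.907% with the leading-gene covariate, 0.242% and 0.174% (50 and 36) in the mt-Co1-led libraries, and 0.00447% and 0.00893% (1 and 2) in the Ttn-led ones, with fewer samples. The lower share was 0.163% (65) without a filter and 1.05% (154) with 1 CPM in 7 libraries. With both kidney disease 6 and wild type 1 left out, an alternative chosen after seeing the data, the shares were 0.392% and 0.215% (82 and 45), and leaving out 1 library gave 0.325% to 0.958% higher and 0.146% to 0.939% lower. The groups share 7 replicate numbers. Of the 7 pairs 2 correlated above 0.1 (-0.20 to 0.42), and 2 of 7 kidney disease libraries correlated best with their own number. Whether the numbers pair the samples was not tested, since weak correlations cannot exclude a pairing. With a replicate block 0.304% of genes (63) were higher and 0.246% (51) lower, and 0 members were called. In the Ttn-led libraries the log2 change was -0.3152 for Ccna2, -0.0247 for Mcm5, -0.0800 for Mcm6, -0.0991 for Mcm7, -0.0758 for Ccnb1, -0.4674 for Cdk1, -0.1989 for Plk1, -0.0440 for Aurka, -0.0293 for Aurkb, -0.1909 for Ube2c, -0.1043 for Birc5, -0.1078 for Kif20a, -0.1578 for Kif23, -0.2149 for Prc1, -0.0469 for Tpx2 and -0.0870 for Mki67. There it was also -0.1850 for Foxm1, -0.0153 for Cdk6, 0.0885 for Gadd45a, -0.0976 for Dbf4, 0.0103 for Pold1 and -0.1089 for Anln. With both libraries left out it was -0.0710 for Ccna2, -0.0297 for Mcm2, -0.1050 for Mcm5, -0.0097 for Mcm7, -0.3023 for Ccnb1 and -0.1779 for Ube2c. Rrm2 was at 0.0068 in the mt-Co1-led libraries. Ccne2, at -0.02 in the report, was 0.0435 with library-total scaling, 0.0232 with the replicate block, 0.0201 with the leading-gene covariate, 0.0143 and 0.0308 in the mt-Co1-led and Ttn-led libraries, and 0.0005 with both libraries left out. Leaving out 1 library gave -0.1770 to 0.3834 for Ccnb1, -0.0687 to 0.0333 for Ccne2, -0.0240 to 0.0471 for Mcm2, -0.0825 to 0.1987 for Mcm5, -0.0051 to 0.0910 for Mcm7 and -0.0924 to 0.4279 for Ube2c. The cause of these changes was not tested. Depth limits Bub1, Ccnb1, Ccnb2, Aurkb, Plk1 and Birc5, with fewer than 10 counts in at least 1 library.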

Other observations

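Promoter letters were also searched in the mitotic genes outside the members. Of 28 such genes with a RefSeq window, 20 (71.4%) held the CHR letters TTTGAA, against 72.2% of the mitotic members. CCAAT was in 67.9% of them and 88.9% of the mitotic members. Both kinds of letters fell in the same window for 16 of the 28 genes (57.1%), for 72.2% of the mitotic members and for 7.97% of all 27025 genes with a window. The differences between the lists were not tested.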
